A study of Danio rerio with 24 samples.

Results

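The hox genes of zebrafish were read across sorted embryonic, larval and adult cells, as all genes of the deposited FPKM table whose symbol is hox, a cluster letter (a to d), a paralog number and a copy letter (a or b). The rule uses names only and no expression value, and it was set with earlier results of these data known. It took 48 of 25067 genes, which lie in 7 clusters and carry paralog numbers from 1 to 13. They comprise 10 members with paralog numbers 1 to 3, 15 with numbers 4 to 8 and 23 with numbers 9 to 13, and all 48 passed the filter on low values. The tail cells came from fish with 2 reporters, written Tg (kdrl:mCherry/CD41:GFP). The kdrl promoter drives mCherry in endothelium, and the CD41 (itga2b) promoter drives GFP in thrombocytes and in stem and progenitor cells of the blood, called HSPCs. Tails of 36 hours (hpf), 3 days (dpf) and 4 days after fertilization were sorted into endothelial cells (EC), HSPCs and cells with neither reporter (DN, titled NC), and tails of 52 hpf gave DN cells. Adult kidney marrow of CD41:GFP fish, taken at 3 months (mpf), was sorted into HSPC and DN. This gave 12 groups of 2 libraries, 24 in all. Every tail group carries both reporters, the DN cells included. No EC or HSPC library of 52 hpf was used here. The sample titles name the caudal hematopoietic tissue (CHT), the tail's blood-forming niche, from 52 hpf on but not at 36 hpf, so stage and dissection cannot be told apart where 36 hpf is compared with later stages.

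Hox genes encode homeodomain transcription factors that give cells their position along the head-to-tail axis. Genes with low paralog numbers are active first and reach farthest forward, into the hindbrain. Those with high numbers start later and mark the trunk end and the tail, an order known as collinearity. Genes of one paralog number in different clusters are ancient duplicates, and zebrafish kept extra a and b copies from a fish-specific genome duplication. In mammals several hox genes, Hoxa9 and Hoxb4 among them, are also used by blood stem and progenitor cells.

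Values are FPKM, reads scaled by gene length and by library depth, so levels of different genes can be set side by side. Where values per library are given, replicate 1 comes first. Fold changes are differences of log2(FPKM + 1), given ± their standard error (SE), from limma fitted to 21024 genes with n = 2 per group. Members are called where the p adjusted over all genes by Benjamini and Hochberg is under 0.05 and the change is 2-fold or more, and the percentages called beside the counts are those of all genes under the same rule. Nothing in the labels says that replicates are separate clutches or sorts. The p-values therefore rest on a spread between samples that may be technical. The libraries held 1741360 to 21338170 reads. EC replicate 2 at 4 dpf had 2483 genes above 0 and HSPC replicate 2 at 4 dpf had 11265, against 17866 or more in their partners. These 2 libraries enter the common estimate of spread, so the counts below are also given without them. Libraries labelled HSPC at 3 dpf had 13459 and 13274 genes above 0, the lowest of the groups compared. kdrl did not mark the EC sorts after 36 hpf, at 0.333 and 0.323 FPKM in EC and 0.257 and 0.387 in DN at 3 dpf. A list of 16 endothelial genes went the other way, with sums of 58.7 and 61.2 FPKM in EC and 10.7 and 15.5 in DN at 3 dpf. It summed to 72.4 and 45.1 in HSPC, so it did not set EC apart from HSPC. fli1a alone gave 31.7 and 32.7 in EC and 48.6 and 33.8 in HSPC. Fewer cells of a type and less RNA per cell cannot be told apart in these bulk values. In the RefSeq annotation of GRCz12tu, a newer assembly than the GRCz10 named for these files, 17 of the 48 gene spans overlap another member's span. They are mostly members with paralog numbers 3 to 6: hoxc3a overlaps hoxc4a, hoxc5a, hoxc6a, hoxc8a and hoxc9a, hoxb3a overlaps hoxb4a, hoxb5a and hoxb6a, hoxb1b overlaps hoxb5b and hoxb6b, hoxa3a overlaps hoxa5a, and hoxd3a overlaps hoxd4a. The sources used here do not say how reads in shared stretches were assigned, so the levels of these 17 are uncertain against each other, and reads of a gene and an antisense partner cannot be told apart.

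Summed hox RNA was highest in DN cells at each tail stage where other sorts were read. The summed level of the 48 members was 2384 and 2246 FPKM in the DN libraries of 36 hpf and 1149.8 and 1222 in those of 52 hpf. DN libraries of 3 dpf summed to 4750.4 and 3780.0 and those of 4 dpf to 3242 and 2779. In EC it was 1015 and 757 FPKM at 36 hpf and 138 and 276 at 3 dpf, and in HSPC 666 and 762 and 51.3 and 26.2. The sum in DN cells was thus lowest at 52 hpf and highest at 3 dpf, with no overlap between the stages, while in EC and HSPC it was lower at 3 dpf than at 36 hpf. No member was listed at 0 in any DN tail library or in any library of 36 hpf. At 3 dpf 5 and 0 members were listed at 0 in EC and 32 and 37 in HSPC. In the adult kidney, whose marrow is the blood-forming organ of grown fish, 3 and 3 members were listed at 0 in HSPC and 30 and 20 in DN libraries, whose summed levels were 19.2 and 69.4 and 34.3 and 67.1 FPKM. An exact 0 here means that the table lists no signal.

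**Figure D1:**
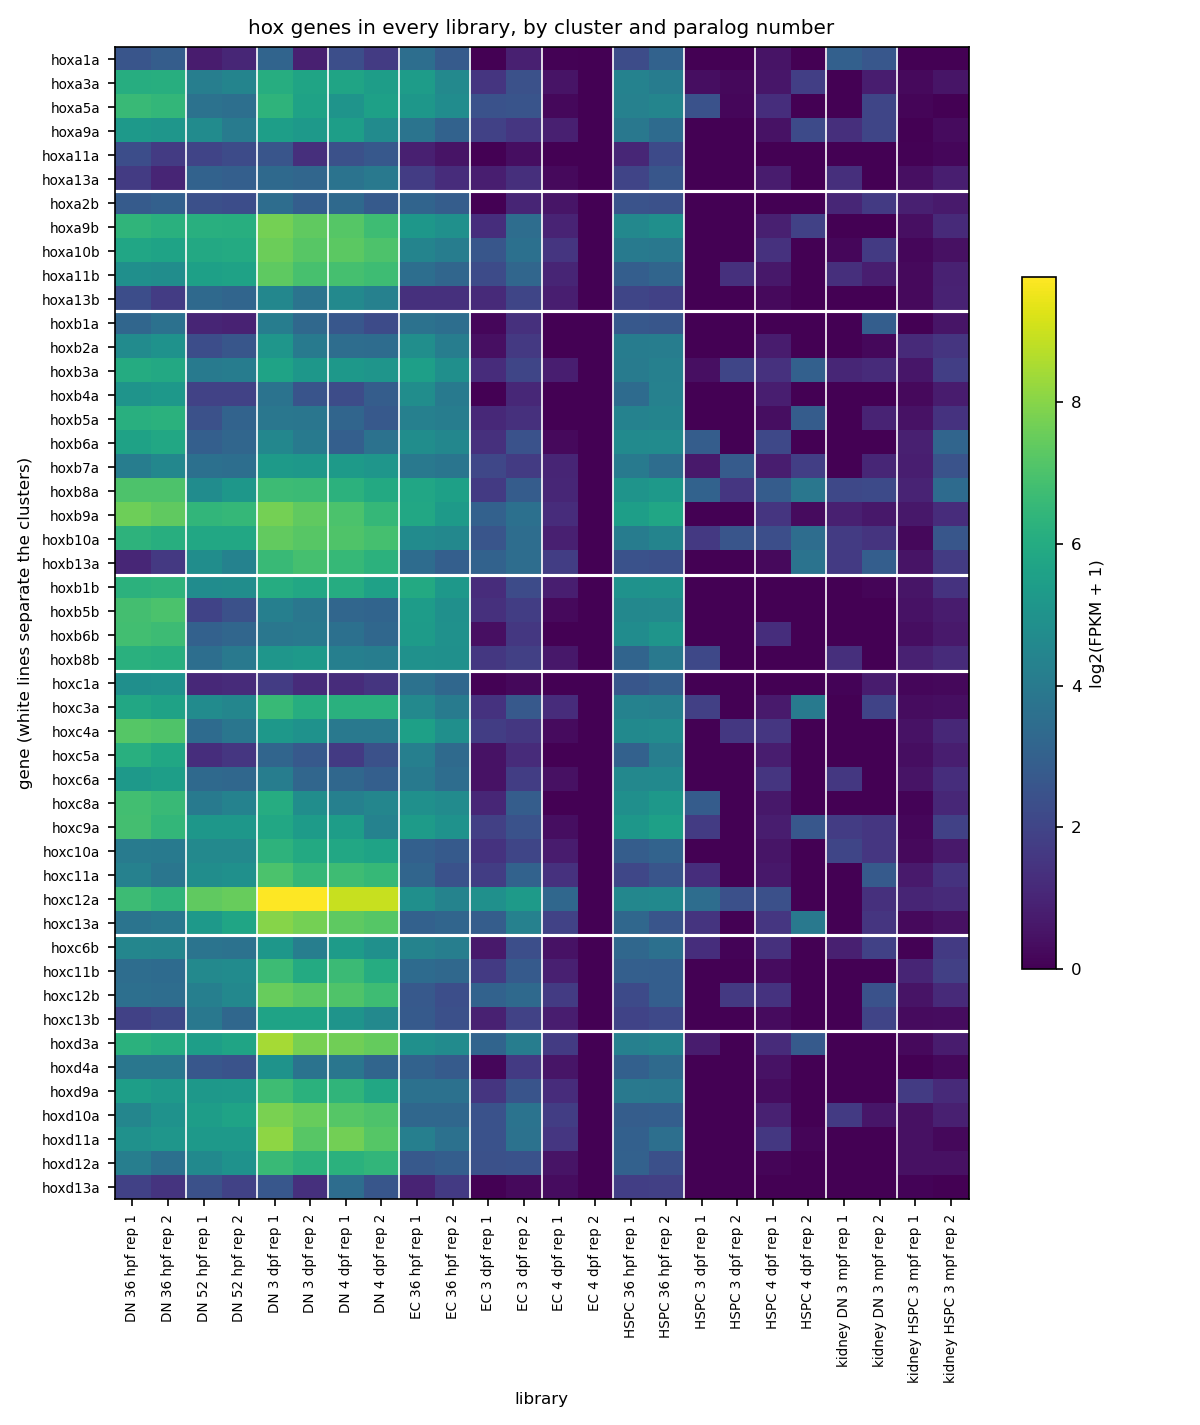
Level of each of the 48 hox genes in every library as log2(FPKM + 1), colour from 0 (dark) up; genes are ordered by cluster and paralog number, columns are the 24 single libraries grouped by cell type and stage. The DN tail columns hold the highest levels, with the brightest cells for hoxc12a at 3 dpf, while HSPC columns at 3 dpf and the kidney columns are mostly dark.

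The leading member differed by stage and cell type. At 36 hpf hoxb9a, a trunk gene, had the highest mean in DN, at 194 and 163 FPKM, followed by hoxc4a at 145 and 134, hoxb8a at 130.4 and 129, hoxb5b at 115 and 128 and hoxb6b at 109.6 and 101. These are genes of the neck and trunk levels of the axis. From 52 hpf on hoxc12a, a gene of the tail end, led in DN cells. It went from 102 and 83.6 FPKM at 36 hpf to 164 and 181 at 52 hpf, was highest at 3 dpf with 862 and 867, and stood at 490.3 and 497 on day 4. The next at 52 hpf were hoxb9a at 85.9 and 89.2, hoxa9b at 71.2 and 69.4, hoxa10b at 58.7 and 61.3 and hoxb10a at 56.7 and 56.1 FPKM. At 3 dpf they were hoxd3a at 348 and 217, hoxc13a at 251 and 212, hoxd11a at 271 and 147 and hoxd10a at 225 and 179 FPKM. Of these only hoxd3a, whose span overlaps hoxd4a, has a low paralog number. In the EC libraries of 36 hpf the order was hoxb8a at 53.4 and 46.4, hoxb1b at 60.4 and 36.1, hoxb9a at 56.4 and 39.4, hoxc4a at 45.9 and 27.8 and hoxb3a at 44.5 and 28.2 FPKM, and neighbours in this order overlap. HSPC libraries of 36 hpf were led by hoxb9a at 43.8 and 54.6, hoxc9a at 34.5 and 46.2, hoxb8a at 32.1 and 37.8, hoxc8a at 28.5 and 36.2 and hoxb1b at 30.3 and 31.1 FPKM, which also overlap from each to the next. At 3 dpf hoxc12a led both, at 28.9 and 38.4 FPKM in EC and 10.2 and 4.25 in HSPC.

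The make-up of the hox RNA by paralog number shifted toward the posterior genes between 36 hpf and the later stages, in DN and in the sorts labelled EC. In DN cells members 9 to 13 made up 37.2 and 34.5 percent of the summed hox FPKM at 36 hpf and 76.2 and 74.7 percent at 52 hpf. At 3 dpf the share was 74.2 and 77.7 percent and at 4 dpf 76.8 and 75.8 percent, so the 3 later stages lay close together. Members 4 to 8 went the other way, from 45.7 and 47.5 percent at 36 hpf to 11.9 and 13.2 at 52 hpf. EC libraries held 32.5 and 34.3 percent in members 9 to 13 at 36 hpf and 73.8 and 69.4 percent at 3 dpf, and HSPC libraries held 38.3 and 38.4 percent at 36 hpf. Within 36 hpf the 3 sorts thus had like shares in members 9 to 13, although their summed levels differed. The share of members 1 to 3 differed more, at 26.3 and 23.2 percent in EC, 20.6 and 18.8 in HSPC and 17.1 and 18.0 in DN. The EC shares of 3 dpf rest on summed hox levels of 138 and 276 FPKM, beside 4750 and 3780 in DN. The neural list was at 138 and 235 FPKM in EC and 3699 and 3415 in DN. kdrl did not mark that EC sort, so hox RNA of endothelium and of other cells in it cannot be told apart. A share is unchanged by the scaling of a library. Counted in recovered reads in place of FPKM, where long genes weigh more, the mean share in DN was 32.5 percent at 36 hpf, 67.7 at 52 hpf, 66.4 at 3 dpf and 66.2 at 4 dpf. Shares are not given for HSPC at 3 dpf or for the kidney, where most or many members were listed at 0 or below 1 FPKM.

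**Figure D2:**
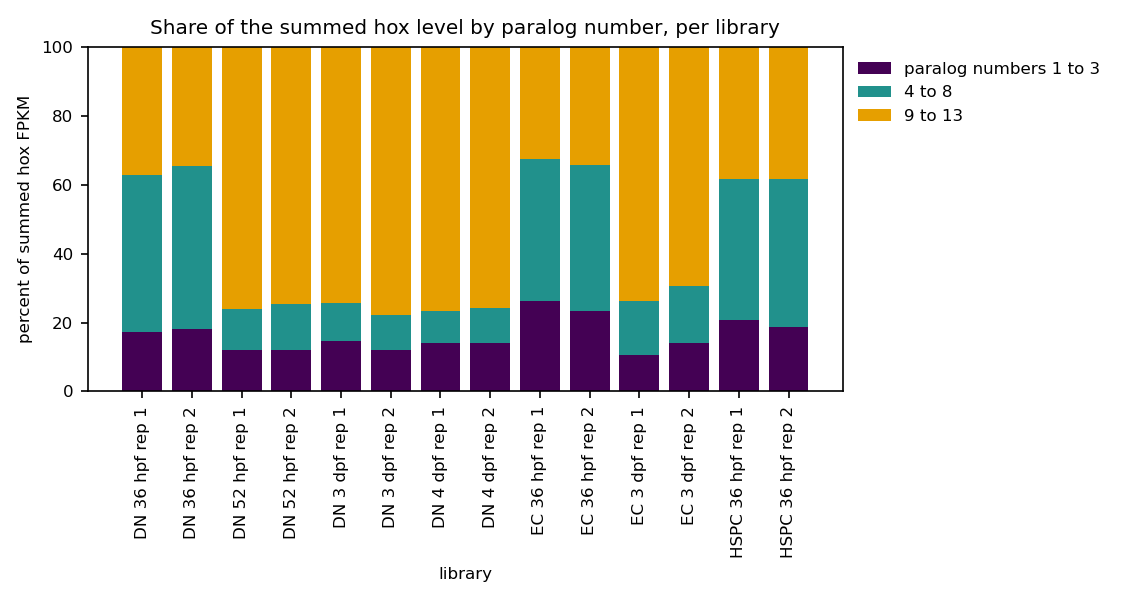
Percent of the summed hox FPKM in paralog numbers 1 to 3, 4 to 8 and 9 to 13, one stacked bar per library, for DN, EC and HSPC groups with enough hox signal. Bars of 36 hpf hold about the same share in numbers 9 to 13 in all 3 sorts (32.5 to 38.4 percent), and bars of later stages hold 69.4 to 77.7 percent.

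Seen by single paralog number, the DN levels differed in direction between low and high numbers from 36 to 52 hpf. Paralog group 5 summed to 354 and 345 FPKM at 36 hpf and 20.6 and 24.7 at 52 hpf, and group 4 to 190.4 and 183 and 17.7 and 20.7. Group 9 was at 471 and 395 and then 254 and 247, group 10 at 169.9 and 164 and then 182 and 191, and group 13 at 25 and 24.3 and then 98.3 and 98.2. Groups 1 to 9 were therefore lower at 52 hpf in both libraries and groups 10 to 13 higher, except that with a common FPKM sum group 10 was lower too, at 201 and 193 and then 180.1 and 190.0 on that scale. At 3 dpf group 12 reached 1138 and 1099 FPKM and group 13 435 and 400.3, while group 5 was at 121 and 80.4 and group 4 at 79.7 and 47.5, still below their levels of 36 hpf. Not all low numbers stayed below. Group 3 was at 560 and 370 FPKM at 3 dpf, against 260 and 240 at 36 hpf. All members of groups 3, 4 and 5 have spans that overlap another member, so the levels of these groups are uncertain against each other. Group 7, which has 1 member, was at 39.4 and 35.5, against 16.8 and 22 at 36 hpf. Among the clusters the hoxbb cluster, which holds hoxb1b, hoxb5b, hoxb6b and hoxb8b, summed to 373 and 378 FPKM at 36 hpf and 47 and 53.7 at 52 hpf. The hoxda cluster, whose members have numbers 3, 4 and 9 to 13, was at 202 and 194 and 193 and 214 FPKM at those stages and at 1083 and 708 at 3 dpf.

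**Figure D3:**
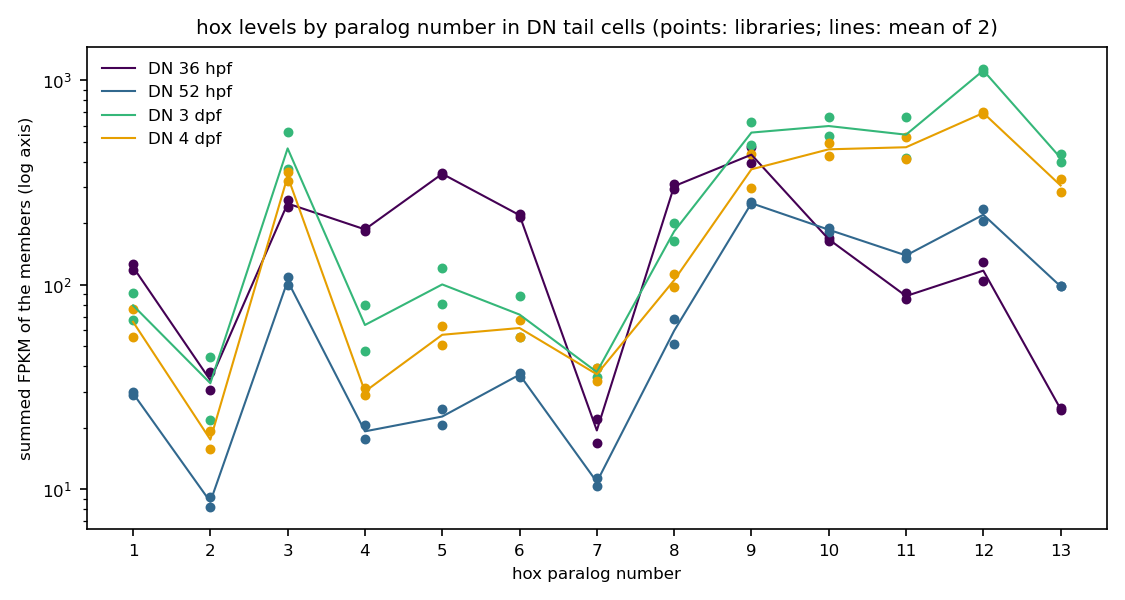
Summed FPKM (log axis) of the members of each paralog number from 1 to 13 in DN tail cells; points are the 2 libraries of a stage and lines join their means. The 36 hpf line lies above the 52 hpf line up to number 9 and below it from number 10 on (from 11 on with a common FPKM sum). The 3 dpf line is highest at numbers 3 and 7 and from number 9 on.

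The first stage step in DN cells, from 36 to 52 hpf, compares tail cells that were sorted for the absence of both reporter signals. Of the 48 members 9 were called lower and none higher, against 0.932 percent lower and 1.02 percent higher among all genes. The 9 were 7 of the 15 members 4 to 8 and 2 of the 10 members 1 to 3, and none of the 23 members 9 to 13 was called in either direction. hoxb5b, linked in zebrafish to limiting the heart field, went from 115 and 128 FPKM to 2.89 and 4.4, log2 fold change -4.74 ± 0.42 (adjusted p = 1.37e-05). Its copy hoxb5a went from 71.4 and 75.1 to 4.4 and 7.54 FPKM, log2 fold change -3.45 ± 0.63 (adjusted p = 0.00834). hoxc5a, of the same paralog group, went from 71.1 and 55.4 to 1.4 and 1.9 FPKM, log2 fold change -4.59 ± 0.49 (adjusted p = 6.09e-05). Both libraries of 52 hpf thus lay far below both of 36 hpf for all 3 genes. hoxb6b went from 109.6 and 101 to 7.24 and 8.45 FPKM, log2 fold change -3.59 ± 0.51 (adjusted p = 0.000907), and hoxc4a from 145 and 134 to 9.53 and 13.2, log2 fold change -3.52 ± 0.59 (adjusted p = 0.00418). hoxb6a, the copy of hoxb6b, was at 48.3 and 57.5 and then 6.68 and 8.3 FPKM and was not called (adjusted p = 0.134). hoxc1a, of the hindbrain group, fell from 28 and 29.3 to 1.2 and 1.28 FPKM, log2 fold change -3.72 ± 0.35 (adjusted p = 1.37e-05). The other 3 called were hoxb4a, hoxa5a and hoxb2a, with log2 fold changes of -3.19, -2.89 and -2.36.

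Every one of the 25 members with paralog numbers 1 to 8 had a negative value in that step, while 17 of the 23 members 9 to 13 had a positive one (14 with every library scaled to a common FPKM sum). The class medians were -1.82 for members 1 to 3, -2.67 for 4 to 8 and 0.76 for 9 to 13 on the log2 scale, beside -0.13 over all genes tested. hoxb13a, a tail-end gene, had the highest value, at 1.04 and 2.04 FPKM at 36 hpf and 26.6 and 19.3 at 52 hpf, log2 fold change 3.25 ± 0.85 (adjusted p = 0.0567), and was not called. The uncalled members with the highest means were hoxb9a (-1.02 ± 0.59), hoxc12a (0.90 ± 0.89) and hoxb8a (-2.08 ± 0.76). Leaving out both low-complexity libraries, the same step gave 19 lower members (5.70 percent of all genes) and 2 higher, hoxb13a and hoxa13a (4.77 percent). Without any 1 of the 4 DN libraries compared, 4 or 5 were called, and limma-voom on recovered reads called 1. Markers of other cells differed between these stages. The erythroid list, red-cell genes, (10 genes, 0 to 2 at 0) summed to 4304 and 4563 FPKM at 36 hpf and 93899 and 87145 at 52 hpf. The neural list (16 genes, none at 0) was at 2554 and 2383 FPKM at 36 hpf and 992 and 969.9 at 52 hpf. The mesenchyme and fin list (14 genes, none at 0) was at 739 and 907 FPKM and then 4307 and 3502. Their part in the result was not tested.

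From 52 hpf to 3 dpf hox genes of all 3 paralog classes rose in DN cells. Of the 48 members 14 were called higher and none lower, where 9.63 percent of all genes were called higher and 3.91 percent lower. The 14 were 3 of 10 members 1 to 3, 4 of 15 members 4 to 8 and 7 of 23 members 9 to 13, and the class medians were alike at 1.49, 1.46 and 1.53, beside 0.16 over all genes. hoxc12b rose from 17.7 and 22.7 to 179 and 154 FPKM, log2 fold change 2.99 ± 0.78 (adjusted p = 0.0141). Its copy hoxc12a was at 164 and 181 and then 862 and 867 FPKM, log2 fold change 2.32 ± 0.89 (adjusted p = 0.101), and was not called. hoxb1a, which sets the identity of a hindbrain segment, rose from 1.01 and 0.934 to 16.7 and 8.75 FPKM, log2 fold change 2.73 ± 0.65 (adjusted p = 0.00813). The libraries of the stages did not overlap for any of these 3. hoxd3a rose from 43.3 and 50.9 to 348 and 217 FPKM, log2 fold change 2.53 ± 0.66 (adjusted p = 0.0144), and hoxd11a from 36.9 and 36.4 to 271 and 147, log2 fold change 2.42 ± 0.64 (adjusted p = 0.0161). hoxa5a rose from 12 and 10.9 to 81.3 and 47.9 FPKM, log2 fold change 2.35 ± 0.73 (adjusted p = 0.0379), and hoxb2a from 3.99 and 5.19 to 34 and 15.1, log2 fold change 2.1 ± 0.51 (adjusted p = 0.00952). Both of these had been called lower in the step before, which shares the 52 hpf libraries. hoxb1b, the copy of hoxb1a, was at 26.2 and 26.6 and then 64.5 and 56.6 FPKM (adjusted p = 0.183). The uncalled hoxc13a went from 36.8 and 52.4 to 251 and 212 FPKM (adjusted p = 0.0653) and hoxb9a from 85.9 and 89.2 to 211 and 167 (adjusted p = 0.284).

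The count of this step depended on single libraries. It was 33 higher without both low-complexity libraries (17.9 percent of all genes), 0 without DN replicate 1 of 52 hpf or of 3 dpf, 2 without DN replicate 2 of 52 hpf and 7 without DN replicate 2 of 3 dpf, and limma-voom called 0. At 3 dpf the erythroid list (1 and 2 genes at 0) was at 4471 and 8823 FPKM and the neural list stood at 3699 and 3415, above 52 hpf, while the mesenchyme and fin list (0 and 1 gene at 0) was at 847 and 514. Their part was not tested.

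From 3 to 4 dpf no hox member was called in DN cells by limma, where 0.0618 percent of all genes were called lower and 0.138 percent higher. At an unadjusted p under 0.05 there were 2 members, and limma-voom called 0. The count was also 0 without both low-complexity libraries (0.224 percent of all genes lower, 1.22 percent higher) and without any 1 of the 4 DN libraries compared. The median over the members was -0.42 on the log2 scale beside 0.00 over all genes. The members with the highest means were hoxc12a (-0.81 ± 0.89), hoxd3a (-0.57 ± 0.66) and hoxc13a (-0.59 ± 0.82), each with a change smaller than its SE. That SE rests on the spread within all 12 groups and not on the DN libraries alone. hoxc12a was at 862 and 867 FPKM at 3 dpf and at 490.3 and 497 at 4 dpf. hoxd3a was at 348 and 217 and then 198 and 174 FPKM, and hoxc13a at 251 and 212 and then 159.6 and 146.

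**Figure D4:**
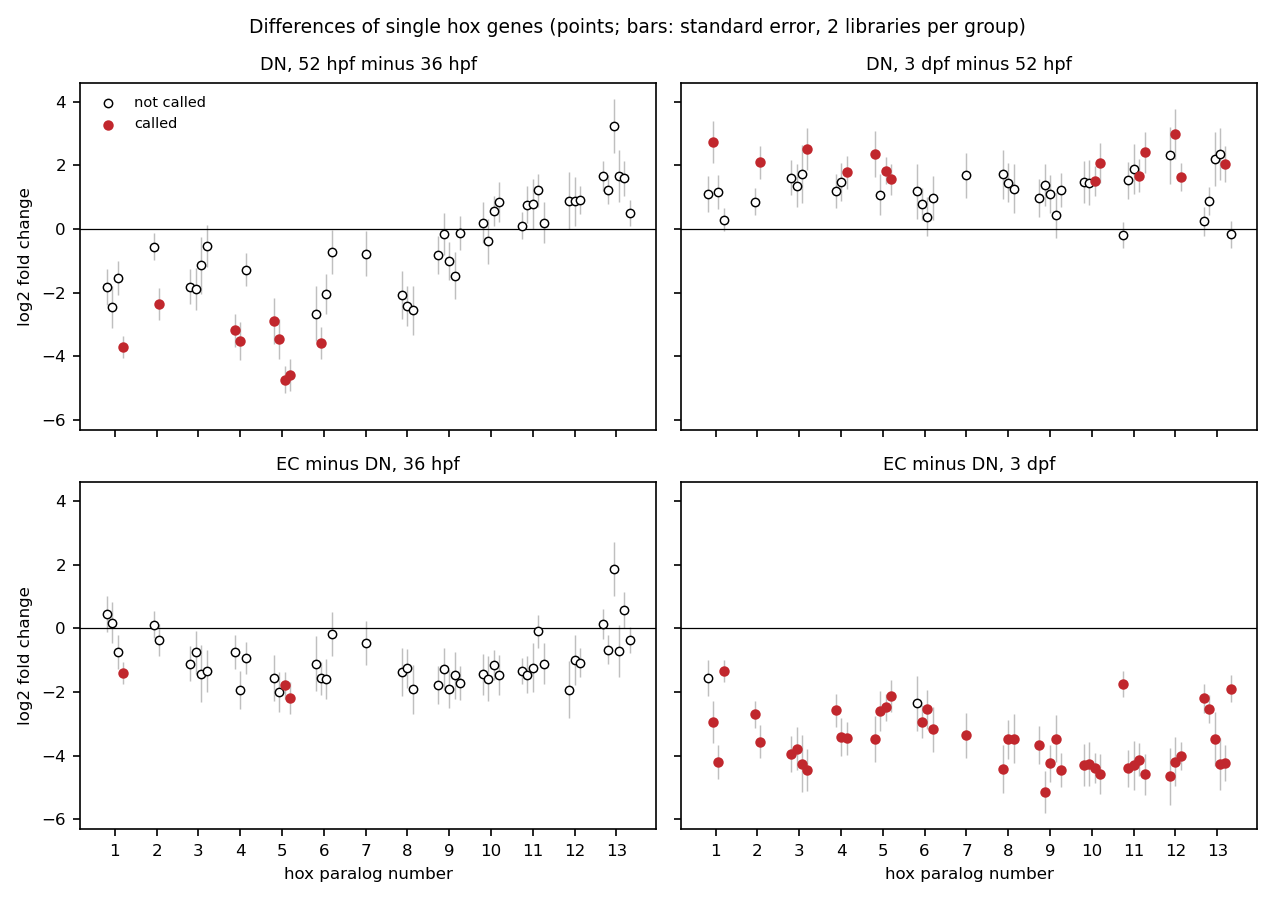
Log2 fold change of each hox gene (vertical axis) by paralog number (horizontal axis) in 4 comparisons, with SE bars; filled red points are called and open points are not. In DN cells from 36 to 52 hpf the points lie between -4.74 and 3.25, negative for all numbers up to 8 and mostly positive from 10 on. From 52 hpf to 3 dpf they lie between -0.18 and 2.99. EC minus DN lies between -2.19 and 1.89 at 36 hpf and between -5.16 and -1.33 at 3 dpf.

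Where both copies of a duplicate pair remain in the table, the same copy was often the higher in every DN tail library. Of 11 such pairs the b copy was higher in 8 of 8 DN libraries for 4 pairs, hoxb1b, hoxa9b, hoxa11b and hoxa13b. The a copy was higher in 8 of 8 for 4 others, hoxb8a, hoxc11a, hoxc12a and hoxc13a. The median log2 ratio of b over a was 4.10 for hoxa11, with hoxa11b at 161 and 119.6 FPKM and hoxa11a at 4.88 and 1.48 at 3 dpf. It was 3.44 for hoxb1 and 1.89 for hoxa9, where hoxa9b stood at 209 and 167 FPKM and hoxa9a at 43.9 and 37 at 3 dpf. For hoxc12 it was -2.75, while it was only 0.72 for hoxa13 and -0.39 for hoxc11. The other 3 pairs, hoxb5, hoxb6 and hoxc6, changed order between libraries: b exceeded a in 6, 5 and 6 of 8. For hoxc6 the copies crossed with stage, with hoxc6a at 36.6 and 43.2 and hoxc6b at 21.4 and 20.5 FPKM at 36 hpf but 8.68 and 6.86 and 40.4 and 28.7 at 4 dpf. The sources used here do not say how reads that match both copies were counted, so these ratios are uncertain.

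At 36 hpf EC and HSPC were each compared with DN cells of the same stage. In EC 3 members were called lower and none higher, against 1.21 and 2.12 percent of all genes, with a median of -1.24 over the members and 0.08 over all genes. These were hoxc5a, at 17.8 and 9.41 FPKM in EC and 71.1 and 55.4 in DN, log2 fold change -2.19 ± 0.49 (adjusted p = 0.0187), hoxb5b, at 40.9 and 28.9 in EC, log2 fold change -1.79 ± 0.42 (adjusted p = 0.0257), and hoxc1a, at 11.9 and 8.57 in EC, log2 fold change -1.41 ± 0.35 (adjusted p = 0.031). All EC libraries lay below all DN libraries for the 3 genes, yet still held 8.57 FPKM or more. The uncalled members with the highest means were hoxb9a (-1.90 ± 0.59), hoxb8a (-1.37 ± 0.76) and hoxc4a (-1.93 ± 0.59). hoxb13a stood apart in direction, at 9.82 and 6.83 FPKM in EC and 1.04 and 2.04 in DN, log2 fold change 1.89 ± 0.85 (adjusted p = 0.307). With both low-complexity libraries left out, 16 members were lower (4.73 percent of all genes) and hoxb13a was higher (6.40 percent, adjusted p = 0.011). Without EC replicate 1 there was 1 call, without EC replicate 2 or either DN replicate 0, and limma-voom called 0.

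The reporter's own gene did not mark the HSPC sorts of 36 hpf, with itga2b at 0.428 and 0 FPKM there and 0 and 0 in DN, and the HSPC regulator list (11 genes, 0 and 1 at 0) summed to 82.2 and 54 FPKM, beside 109 and 112 in EC and 56.5 and 57.7 in DN. In these libraries, labelled HSPC, 7 members were called lower and none higher, against 4.48 and 2.80 percent of all genes, with a median of -1.44 beside 0.00. hoxb8b had 7.79 and 14.4 FPKM in HSPC against 71.9 and 68.9 in DN, log2 fold change -2.62 ± 0.62 (adjusted p = 0.0147), and its copy hoxb8a 32.1 and 37.8 against 130.4 and 129, not called (adjusted p = 0.16). hoxc4a was at 23.9 and 25 FPKM in HSPC, log2 fold change -2.46 ± 0.59 (adjusted p = 0.0158), and hoxc5a at 7.2 and 16.8, log2 fold change -2.40 ± 0.49 (adjusted p = 0.00601). Both libraries lay below DN for each of them. hoxb5b was at 22.7 and 23 FPKM, log2 fold change -2.36 ± 0.42 (adjusted p = 0.00251), hoxc1a at 5.15 and 6.29, log2 fold change -2.15 ± 0.35 (adjusted p = 0.00125), and hoxa3a at 19 and 16.4 against 66.1 and 69.2 in DN, log2 fold change -1.88 ± 0.55 (adjusted p = 0.0457). The seventh was hoxb6b (-1.83 ± 0.51). Of the 7, 5 have paralog numbers 4 to 8 and none 9 to 13. The uncalled hoxb9a was at 43.8 and 54.6 FPKM in HSPC (-1.84 ± 0.59) and hoxc9a at 34.5 and 46.2 (-1.29 ± 0.73). Without both low-complexity libraries 25 were lower (12.1 percent of all genes), without any 1 of the 4 libraries compared 2 or 3, and by limma-voom 0. The epidermis list (10 genes, none at 0) summed to 13276 and 14234 FPKM in the HSPC sorts and 8157 and 9337 in DN, and the neural list to 584 and 599 and 2554 and 2383. In EC these lists summed to 6921 and 8620.0 and 1178 and 1049, and their part was not tested.

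Between HSPC and EC of 36 hpf limma called 0 hox members, against 0.618 percent of all genes lower and 0.742 percent higher. There were 3 members at an unadjusted p under 0.05, limma-voom called 0, and the count was 0 without both low-complexity libraries and 0 without any single library. The median was -0.33 over the members and -0.16 over all genes. The highest members were hoxb9a (0.05 ± 0.59), hoxb8a (-0.50 ± 0.76) and hoxb1b (-0.59 ± 0.53). The median was -0.03 with median-of-ratios scaling.

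**Figure D5:**
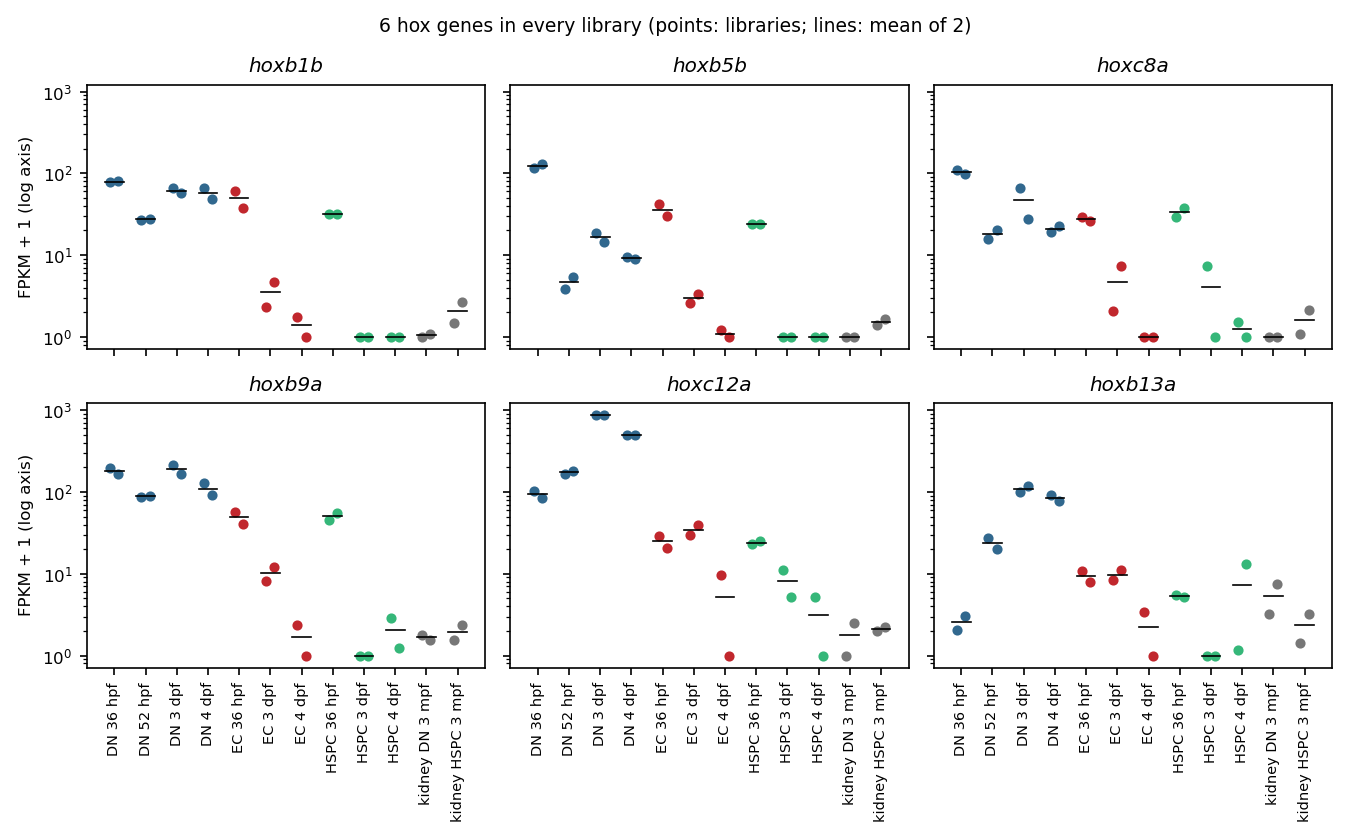
FPKM + 1 (log axis) of 6 hox genes from paralog numbers 1 to 13 in all 24 libraries; points are libraries, bars the mean of 2, blue DN tail, red EC, green HSPC, grey kidney. hoxb5b drops in DN cells from 115 and 128 FPKM at 36 hpf to 2.89 and 4.40 at 52 hpf, hoxc12a and hoxb13a are higher at 52 hpf and 3 dpf than at 36 hpf, and all 6 are low in HSPC at 3 dpf.

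At 3 dpf nearly all hox genes were lower in the sorted cells than in DN cells. In EC 46 of 48 members were called lower, against 17.1 percent of all genes lower and 5.28 percent higher, with a median of -3.53 beside -0.16. The differences of 6 members are given in order of size, 5 of them with paralog numbers 9 to 13. The class medians were -3.67, -3.18 and -4.25 for members 1 to 3, 4 to 8 and 9 to 13, and the classes were not tested against each other. hoxa9b, whose mouse counterpart acts in blood progenitors, was at 1.44 and 10.4 FPKM in EC and 209 and 167 in DN, log2 fold change -5.16 ± 0.66 (adjusted p = 2.18e-05). Its copy hoxa9a was at 2.67 and 1.91 and 43.9 and 37, log2 fold change -3.66 ± 0.59 (adjusted p = 0.000148). hoxc12a was at 28.9 and 38.4 FPKM in EC and 862 and 867 in DN, log2 fold change -4.66 ± 0.89 (adjusted p = 0.000666). Both EC libraries lay below both DN libraries for each of them. hoxd11a was at 4.44 and 12 FPKM in EC, log2 fold change -4.58 ± 0.64 (adjusted p = 4.39e-05), and hoxd10a at 4.56 and 12, log2 fold change -4.56 ± 0.63 (adjusted p = 3.87e-05). hoxd3a was at 7.82 and 16.8, log2 fold change -4.46 ± 0.66 (adjusted p = 6.82e-05), and hoxd9a at 1.88 and 4.86 against 106 and 73.7 in DN, log2 fold change -4.44 ± 0.54 (adjusted p = 1.57e-05). The hoxda cluster thus gave 4 of the 6 largest differences. The only members not called were hoxb6a, at 1.58 and 4.46 and 22 and 15.1 FPKM (adjusted p = 0.0583), and hoxa1a, at 0 and 0.791 and 7.82 and 0.79 (adjusted p = 0.0559). Limma-voom on recovered reads called 4 members with all libraries and 47 without both low-complexity libraries, where limma called 48 (23.6 percent of all genes). EC at 3 dpf held 12179 and 11309.6 FPKM of the neutrophil list (9 genes, none at 0) and 138 and 235 of the neural list, against 122 and 279 and 3699 and 3415 in DN, and their part was not tested.

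In HSPC at 3 dpf all 48 members were called lower than in DN, where 23.5 percent of all genes were called lower and 5.56 percent higher. For 29 of the 48 both HSPC libraries were listed at 0, so their fitted changes depend on the pseudocount. Set against 3 reads over both HSPC libraries, these 29 were at least 22.2-fold to at least 3146-fold lower than the DN mean, and with them at these bounds the median log2 ratio over the 48 was -7.16 (-4.63 as fitted, -0.41 over all genes). These bounds and those below cover counting error only. An adjusted p beside a bound is that of the limma change of log2(FPKM + 1), and the bound itself was not tested. The 2 HSPC libraries differed by more than that in some members, with hoxc3a at 89 and 0 reads and hoxb7a at 9 and 88. hoxb9a was listed at 0 in both HSPC libraries and was at 211 and 167 FPKM in DN, at least 3146-fold lower (adjusted p = 1.35e-07). hoxd10a was at least 2133-fold lower, hoxd11a at least 1894-fold, hoxa9b at least 1802-fold and hoxa10b, at 190.1 and 149 FPKM in DN, at least 1795-fold, all listed at 0 in HSPC. hoxd3a had 0.695 and 0 FPKM in HSPC against 348 and 217 in DN, log2 fold change -7.73 ± 0.66 (adjusted p = 1.73e-07). What remained in HSPC was led by hoxc12a at 10.2 and 4.25, hoxb8a at 7.33 and 1.93, hoxb10a at 2.08 and 4.95, hoxb7a at 0.581 and 5.95 and hoxb6a at 6.27 and 0 FPKM. The replicates lay apart, with one at 0 for hoxb6a. Leaving out both low-complexity libraries, 48 were lower (31.2 percent of all genes), and by limma-voom 46. The neural list was at 13 and 26.9 FPKM in HSPC, with 8 of 16 genes at 0 in each library, and its part was not tested.

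HSPC against EC at 3 dpf gave 6 members called lower and none higher, against 0.780 and 0.0856 percent of all genes, with a median of -1.22 beside -0.23. Of the 6, 5 were posterior: hoxb9a, hoxa10b, hoxd10a, hoxd11a and hoxd12a, the sixth being hoxd3a. With 29 members at 0 in both HSPC libraries, fitted changes rest on the EC level and the pseudocount. The highest EC means were mostly of posterior members, so the paralog numbers of the 6 cannot be told apart from the EC levels. hoxb9a was at 7.08 and 11.2 FPKM in EC and at 0 in both HSPC libraries, at least 152-fold lower (adjusted p = 0.0137). hoxd10a, at 4.56 and 12 in EC, was at least 87.8-fold lower, hoxa10b, at 5.16 and 11.1, at least 85.8-fold, hoxd11a, at 4.44 and 12, at least 74.2-fold and hoxd12a, at 4.35 and 4.44, at least 42.4-fold. hoxd3a was at 0.695 and 0 and 7.82 and 16.8 FPKM, log2 fold change -3.27 ± 0.66 (adjusted p = 0.0267). The uncalled members with the highest means were hoxc12a (-2.16 ± 0.89), hoxc13a (-2.86 ± 0.82), at 1.75 and 0 in HSPC and 6.39 and 18.6 FPKM in EC, and hoxb10a (-0.94 ± 0.71). With both low-complexity libraries left out, the count was 20 lower (6.07 percent of all genes), by limma-voom 23, and without any 1 of the 4 EC and HSPC libraries of 3 dpf it was 0.

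Within the sorts labelled EC and HSPC, hox levels were compared between 36 hpf and 3 dpf. The EC sorts of the stages are not shown to hold one cell type: kdrl was at 5.16 and 3.68 and then 0.333 and 0.323 FPKM, and itga2b (CD41) at 0 and 0 and then 6.55 and 5.72. In EC 25 of 48 members were called lower and none higher, against 11.7 and 0.870 percent of all genes. They were 8 of 10 members 1 to 3, 14 of 15 members 4 to 8 and 3 of 23 members 9 to 13, with class medians of -2.94, -2.96 and -0.86. hoxb6b went from 40.3 and 30.0 to 0.327 and 1.97 FPKM, log2 fold change -4.17 ± 0.51 (adjusted p = 3.68e-05). hoxb1b, a hindbrain gene, went from 60.4 and 36.1 to 1.34 and 3.74, log2 fold change -3.84 ± 0.53 (adjusted p = 0.000116). hoxb4a, whose mammalian counterpart supports blood stem cell growth, went from 26.5 and 14.7 to 0 and 1.14, log2 fold change -3.83 ± 0.53 (adjusted p = 0.000106). Both libraries of 3 dpf lay below both of 36 hpf for each of the 3. hoxb5b (-3.59 ± 0.42), hoxb3a (-3.55 ± 0.67) and hoxc4a (-3.52 ± 0.59) also fell. The posterior hoxc12a was at 28.3 and 19.6 FPKM at 36 hpf and 28.9 and 38.4 at 3 dpf, log2 fold change 0.48 ± 0.89 (adjusted p = 0.899), and hoxb13a at 9.82 and 6.83 and 7.35 and 10.2, log2 fold change 0.07 ± 0.85 (adjusted p = 1). Without both low-complexity libraries 34 were lower (17.4 percent of all genes), without EC replicate 1 of 36 hpf or of 3 dpf 13 each, and by limma-voom 3. Markers of other cells differed between these sorts too: epidermis was at 6921 and 8620.0 and then 508 and 443 FPKM (none at 0), neural at 1178 and 1049 and then 138 and 235 (none at 0), skeletal muscle (14 genes, 0 to 2 at 0) at 2026 and 2287 and then 428 and 149, and neutrophil at 2380.2 and 3787 and then 12179 and 11309.6 (none at 0). Their part was not tested.

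In HSPC the fall from 36 hpf to 3 dpf took in the posterior genes too: 44 of 48 members were called lower, 10 of 10 members 1 to 3, 15 of 15 members 4 to 8 and 19 of 23 members 9 to 13, against 19.6 percent of all genes (2.52 percent higher). hoxb9a went from 43.8 and 54.6 FPKM to 0 in both libraries, at least 819-fold lower (adjusted p = 4.44e-06). hoxb1b, from 30.3 and 31.1, was at least 316-fold lower, hoxc6a, from 22.5 and 23.7, at least 251-fold, hoxa9b, from 22.4 and 28.3, at least 243-fold, hoxb5b at least 238-fold and hoxb6b, from 25.6 and 32.9, at least 224-fold. With the 29 members listed at 0 in HSPC of 3 dpf at their bounds, the median log2 ratio was -5.69 (-2.97 as fitted, -0.31 over all genes). The 4 not called were hoxc11a, hoxc12a, hoxc12b and hoxc13a, all of tail-end groups. hoxc12a was at 22 and 24.1 and then 10.2 and 4.25 FPKM, log2 fold change -1.64 ± 0.89 (adjusted p = 0.221), hoxc13a at 8.69 and 4.91 and then 1.75 and 0, log2 fold change -2.19 ± 0.82 (adjusted p = 0.0641), and hoxc12b at 3.58 and 6.63 and then 0 and 2.04, log2 fold change -1.76 ± 0.78 (adjusted p = 0.124). Leaving out both low-complexity libraries, 47 were lower (25.8 percent of all genes). The epidermis list went from 13276 and 14234 to 180.2 and 181 FPKM (none, then 3 and 2 at 0), skeletal muscle from 3501 and 3871 to 6.87 and 10.003 (0 and 1, then 8 and 8 at 0) and mesenchyme and fin from 1778 and 1776 to 32.8 and 45.8 (none, then 7 and 7 at 0). itga2b was at 0.428 and 0 and then 6.54 and 7.98 FPKM, and the part of these in the result was not tested.

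Whether the distance from DN cells itself differed between the stages was tested as the difference at 3 dpf minus that at 36 hpf. For EC minus DN 10 members were called more negative at 3 dpf and none less, against 3.44 and 0.143 percent of all genes. Of the 10, 7 have paralog numbers 9 to 13 and 3 have numbers 1 to 3. hoxb13a changed most, by -5.37 ± 1.2 (adjusted p = 0.0225). EC stood at 9.82 and 6.83 FPKM at 36 hpf and 7.35 and 10.2 at 3 dpf, and DN at 1.04 and 2.04 and 97.7 and 117. hoxc13b changed by -4.81 ± 0.80 (adjusted p = 0.00404), with 5.85 and 4.23 FPKM in EC and 2.72 and 3.34 in DN at 36 hpf and 0.879 and 2.78 and 49.4 and 49 at 3 dpf. hoxc11b (-4.03), hoxa9b (-3.88), hoxd11a (-3.48) and hoxb1b (-3.48) followed. The uncalled members with the highest means were hoxc12a (-2.73 ± 1.26), hoxb9a (-2.35 ± 0.84) and hoxd3a (-3.14 ± 0.93). With both low-complexity libraries left out, 32 were called (11.6 percent of all genes), and by limma-voom 0. The count was 1 without EC or DN replicate 1 of 3 dpf, and 2 without any 1 of the 4 libraries of 36 hpf.

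For HSPC minus DN 32 members were called more negative at 3 dpf and none less, against 14.2 and 1.27 percent of all genes. They were 22 of 23 members 9 to 13, 7 of 10 members 1 to 3 and 3 of 15 members 4 to 8. hoxb13a led again, by -7.85 ± 1.2 (adjusted p = 0.00078), from 4.45 and 4.16 FPKM in HSPC at 36 hpf to 0 in both libraries at 3 dpf. hoxc13a followed with -6.23 ± 1.16 (adjusted p = 0.00206), then hoxa9b (-5.96), hoxd3a (-5.92), hoxd11a (-5.90) and hoxc11b (-5.83). The uncalled members with the highest means were hoxb8a, hoxc4a and hoxc8a, with -2.50 ± 1.07, -1.84 ± 0.84 and -2.33 ± 1.09. Fitted values of members at 0 in HSPC depend on the pseudocount. The count was 41 without both low-complexity libraries (22.1 percent of all genes) and 25 by limma-voom. Both sets of changes share the DN libraries.

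At 4 dpf the EC and HSPC libraries are given singly and without a test. EC replicate 1 held 44.9 FPKM of hox RNA in all, with 14 members at or above 1 FPKM, and in replicate 2 all 48 members were listed at 0. HSPC replicate 1 held 49.7 FPKM with 16 members at or above 1, and replicate 2 101 FPKM with 33 members at 0 and 5 members at or above 10. In EC replicate 1 hoxc12a was highest, at 8.53 FPKM, followed by hoxc13a at 2.81, hoxb13a and hoxd10a at 2.41 each and hoxc12b at 2.27. In HSPC the members with the highest means were hoxb8a at 6.12 and 13.5, hoxc13a at 1.91 and 14.2, hoxc3a at 0.614 and 14.9, hoxb10a at 4.12 and 10.3 and hoxb13a at 0.178 and 12.3 FPKM. Replicate 2 was the higher of the pair for all 5, and the order by mean differs from that within either library.

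In the adult kidney marrow hox RNA was low in both sorts. Kidney HSPC against kidney DN gave 1 member lower and none higher, against 5.20 and 2.40 percent of all genes. The member was hoxa1a, a hindbrain-level gene, listed at 0 in both HSPC libraries and at 7.01 and 5.24 FPKM in DN, at least 106-fold lower (adjusted p = 0.00287). hoxa1a also had the highest mean in kidney DN cells, ahead of hoxb13a at 2.2 and 6.58, hoxb8a at 3.3 and 3.62, hoxb1a at 0 and 6.59 and hoxc11a at 0 and 5.88 FPKM. In replicate 2 hoxb1a, hoxb13a and hoxc11a exceeded hoxa1a, and the replicates of these 3 lay far apart. In kidney HSPC hoxb8a led at 0.954 and 9.78, followed by hoxb6a at 0.806 and 8.15, hoxb7a at 0.745 and 4.65, hoxb10a at 0.165 and 5.06 and hoxc11b at 1.01 and 2.59 FPKM. Of these 5, 4 are of the hoxba cluster, and replicate 2 was the higher of the pair for all 5. The order does not hold in replicate 1, where hoxd9a was highest at 2.26 FPKM. Of the uncalled members hoxb8a differed by 0.04 ± 0.76, hoxb13a by -1.19 ± 0.85 and hoxb10a by -0.17 ± 0.71. Without both low-complexity libraries hoxd9a and hoxc11b were also called higher (13.4 percent of all genes) and hoxa9a and hoxc10a lower (7.92 percent). The count was 2 without kidney DN replicate 1, 5 by limma-voom, and 0 with library weights and in a fit of only the groups compared.

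Between kidney HSPC and HSPC of 3 dpf limma called 0 hox members, against 14.1 percent of all genes called higher and 0.433 percent lower. There were 3 members at an unadjusted p under 0.05, and limma-voom on recovered reads called 11 higher. Of 28 members listed at 0 in both HSPC libraries of 3 dpf but not in the kidney, hoxa11a and hoxd13a had no bound. With the others at their bounds, the median log2 ratio was 1.21 over the 45 members with a ratio or bound. As fitted it was 0.29 over the 48, and 0.63 over all genes. hoxb2a had the highest bound, at least 18.0-fold higher in the kidney. The uncalled members with the highest means were hoxb8a (-0.11 ± 0.76), hoxc12a (-1.85 ± 0.89), at 1.02 and 1.24 FPKM in the kidney, and hoxb6a (0.59 ± 0.86). Leaving out both low-complexity libraries, hoxb2a, hoxc11b and hoxd9a were higher (25.5 percent of all genes) and hoxc12a lower (2.18 percent), and without kidney HSPC replicate 1 the count was 1. This compares adult marrow of CD41:GFP fish with larval tail of fish that carry both reporters. Age, organ and reporter line therefore cannot be told apart.

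DN cells of the kidney lay far below DN cells of the 4 dpf tail: 45 of 48 members were called lower, against 17.2 percent of all genes (12.5 percent higher), and with 17 members at 0 in the kidney set at their bounds the median log2 ratio was -5.87 (-4.00 as fitted, -0.15 over all genes). hoxc12a was at 0 and 1.53 FPKM in the kidney and 490.3 and 497 in the tail, log2 fold change -8.28 ± 0.89 (adjusted p = 1.01e-06). hoxd3a and hoxd11a, at 198 and 174 and 202 and 145 FPKM in the tail and at 0 in both kidney libraries, were at least 2553-fold and at least 1440-fold lower. hoxa9b was likewise at least 1092-fold lower, and hoxc11b, at 99.1 and 64.9 in the tail, at least 674-fold. hoxc13a was at 0 and 1.81 FPKM in the kidney, log2 fold change -6.52 ± 0.82 (adjusted p = 6.04e-06). The 3 members not called were all of paralog group 1: hoxa1a (0.81 ± 0.57), hoxb1a (-0.98 ± 0.65) and hoxc1a (-0.95 ± 0.35), of which hoxc1a passed the p but not the size. The count was 45 without both low-complexity libraries (24.6 percent of all genes). The kidney fish carried CD41:GFP only, so their DN cells were not sorted for the absence of a kdrl signal. kdrl was at 0 and 6.98 FPKM in kidney DN and 0.772 and 0.478 in tail DN of 4 dpf. Age, organ, reporter line and sort cannot be told apart here. The neural list was at 2765 and 2354 FPKM in the tail (none at 0) and 51.4 and 131 in the kidney (3 and 3 at 0), mesenchyme and fin at 1809 and 1978 (none at 0) and 8.49 and 26.1 (8 and 4 at 0), and lymphoid (11 genes) at 0.773 and 1.55 (7 and 7 at 0) and 292 and 169 (0 and 1 at 0). Their part was not tested.

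Genes that act with or on the hox genes were counted from lists chosen by function. The cofactor list holds 14 Meis, Pbx and Pknox genes, homeodomain proteins that bind DNA together with hox proteins, and the regulator list 28 tested genes of the Cdx, retinoic acid, Gdf11, Polycomb and Trithorax systems and the evx genes beside hox clusters. In EC against DN 1 cofactor was lower at 36 hpf and 9 of 14 at 3 dpf, and in HSPC against DN 6 and 11, with none higher. The lower shares of all genes in those comparisons were 1.21, 17.1, 4.48 and 23.5 percent. Without both low-complexity libraries the cofactor counts were 6, 13, 9 and 12, beside 4.73, 23.6, 12.1 and 31.2 percent of all genes. At 3 dpf meis2a was at 12.6 and 18.4 FPKM in EC, 3.75 and 1.7 in HSPC and 403 and 359.5 in DN, a log2 fold change of -4.55 ± 0.68 (adjusted p = 6.99e-05) for EC and -6.74 ± 0.68 (adjusted p = 5.67e-07) for HSPC. pbx3b (-4.51 and -6.16), meis2b (-4.24 and -5.96) and meis3 (-3.79 and -4.64) were lower in both. In DN cells meis2b fell from 176 and 181 to 18 and 20.6 FPKM from 36 to 52 hpf (-3.15 ± 0.59, adjusted p = 0.00936) and rose to 90.4 and 92.1 at 3 dpf (2.19 ± 0.59, adjusted p = 0.0169). meis3 was the other cofactor lower in the first step, and pbx1a and pknox2 rose in the second. That made 2 of 14 lower in the first step, against 0.932 percent of all genes. In the second step 3 of 14 were higher, against 9.63 percent. Without both low-complexity libraries 6 cofactors were lower in the first step (5.70 percent of all genes) and 7 higher in the second (17.9 percent).

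Among 28 regulators tested, 0 were called from 36 to 52 hpf in DN cells and 1 each way from 52 hpf to 3 dpf: evx2, the neighbour of the hoxda cluster, rose from 5.95 and 9.56 to 36.6 and 24.6 FPKM (1.86 ± 0.53, adjusted p = 0.0245), and cyp26c1, a retinoic acid degrading enzyme, fell from 6.73 and 22.3 to 2.62 and 3.2 (-1.78 ± 0.54, adjusted p = 0.033). The libraries of cyp26c1 at 52 hpf differed more than 3-fold. Among all genes 0.932 percent were called lower and 1.02 percent higher in the first step, and 3.91 and 9.63 percent in the second. In this fit of all libraries the regulator counts of both steps thus lie near or below the shares of all genes. At 3 dpf 4 regulators were lower in EC than in DN and none higher, evx2 (-3.78), evx1 (-2.93), the growth factor gdf11 (-2.83) and the retinoic acid receptor rargb (-1.94). In HSPC 8 were lower than in DN and 1 higher. In the fit of all libraries these counts of 28 lie near the shares of all genes, 17.1 percent lower in EC and 23.5 in HSPC. Without both low-complexity libraries 8 regulators were lower from 36 to 52 hpf, and 8 higher and 2 lower from 52 hpf to 3 dpf. The shares of all genes were 5.70 percent lower in the first step and 17.9 higher and 10.7 lower in the second. The lower count of the first step and the higher count of the second thus lay above these shares. In the same fit at 3 dpf 9 were lower and 4 higher in EC (23.6 and 15.1 percent of all genes). In HSPC 15 were lower and 4 higher (31.2 and 14 percent). Both lower counts lay above these shares, more so in HSPC. How the regulator counts stand to the shares of all genes thus depends on the 2 low-complexity libraries. evx2 was at 0.796 and 1.83 FPKM in EC and at 0 in both HSPC libraries, evx1 was at 1.07 and 1.09 in EC, at 0 in both HSPC libraries and at 14.9 and 14.9 in DN. The one higher regulator was suz12a, a subunit of the Polycomb complex that represses hox clusters, with 39.2 and 24.9 FPKM in HSPC against 3.15 and 2.83 in DN (3.02 ± 1.0, adjusted p = 0.0299). ezh2, its catalytic partner, was at 25.1 and 26 and 12.7 and 8.23 FPKM and was not called.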

How the data were processed

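Bulk RNA-seq was read from 24 libraries in 12 groups of 2. The deposited table holds FPKM values of 25067 genes. Per the submitters' processing notes, FastQC, HISAT, HTSeq, DESeq2 and the GRCz10 assembly were used; their versions and any filter on the table are not given in the sources used here. The table lists 557 genes at 0 in every library. Whole reads were recovered from the FPKM steps for 23718 of 23718 genes above 0 in 3 or more libraries, within 0.01 reads, and gave the depth.

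Genes reaching 1 FPKM in 2 or more libraries entered the tests (21024). limma 3.58.1 in R 4.3.3 was fitted to log2(FPKM + 1) of all 24 libraries, with 12 residual degrees of freedom and a median of 5.89 prior ones. There were 16 comparisons, each adjusted over all genes. The script was tested on simulated data. Tables and figures used Python 3.11.15, numpy 2.4.6, pandas 2.3.3 and matplotlib 3.10.9.

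The members and lists were chosen with earlier results of these data known. Values per library are given for up to 6 called members per direction with the largest change and a mean of 1 FPKM in the higher group, for the 5 highest members per group, up to 3 uncalled ones per comparison, and their a or b copies. hoxb13a in comparisons where it falls outside that rule was chosen after its values were seen. EC and HSPC of 4 dpf were not tested, because 1 library of each holds few detected genes. Bounds for members at 0 rest on 3 reads over both libraries of a group and cover counting error only. Alternatives were a pseudocount of 0.1, no filter, 2 other scalings, the replicate number as a block, library weights, fewer libraries and limma-voom on recovered reads. limma-voom without both low-complexity libraries was chosen after seeing the data.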

Additional observations from a re-analysis of the deposited data

Results flagged for a closer look

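The distance of EC from DN cells was tested for a difference between 36 hpf and 3 dpf, and 10 of 48 hox members differed between the stages (limma, adjusted p under 0.05 and a log2 difference of at least 1), all more negative at 3 dpf, against 3.44 percent of all genes more negative and 0.143 percent less. The count was 0 by limma-voom and with a pseudocount of 0.1, and 1 to 9 on leaving out 1 library. The log2 difference, 3 dpf minus 36 hpf, was -5.37 for hoxb13a, -4.81 for hoxc13b, -4.03 for hoxc11b and -3.88 for hoxa9b. It was -3.48 for hoxd11a and -3.48 for hoxb1b.

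The same test for HSPC against DN found 32 of 48 members, against 14.2 percent of all genes more negative and 1.27 percent less. The log2 difference was -7.85 for hoxb13a, -6.23 for hoxc13a, -5.96 for hoxa9b, -5.92 for hoxd3a, -5.90 for hoxd11a and -5.83 for hoxc11b. Both tests share the DN libraries.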

How the results depend on the processing

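Counts of called hox members are given in this order where all apply: EC minus DN and HSPC minus DN at 36 hpf, HSPC minus EC at 3 dpf, DN 52 minus 36 hpf, DN 3 dpf minus 52 hpf, kidney HSPC minus kidney DN, kidney HSPC minus HSPC of 3 dpf, and the change of EC minus DN. As reported they were 3, 7, 6, 9, 14, 1, 0 and 10. With both low-complexity libraries left out they came to 17, 25, 20, 21, 33, 5, 4 and 32, and to 26, 25, 27, 23, 26, 9, 16 and 24 when limma-voom was also used. They were 31, 32, 20, 29, 36, 0, 2 and 40 with library weights, which also called 2 for HSPC minus EC at 36 hpf (0 as reported). They were 0, 0, 15, 3, 0, 3, 7 and 0 with a pseudocount of 0.1, which also called 29 for EC minus DN at 3 dpf (46 as reported) and 10 for EC 3 dpf minus 36 hpf (25 as reported). They were 0, 0, 23, 1, 0, 5, 11 and 0 by limma-voom, which called 4 and 3 in those last comparisons. With only the groups compared they were 27, 30, 0, 28, 32, 0, 0 and 34. A common FPKM sum moved HSPC minus DN at 36 hpf to 18 and the change to 19, and median-of-ratios scaling moved EC minus DN at 36 hpf to 10, the kidney pair to 2 and the change to 29. The all-gene median moved by -0.26 to 0.23 with the common sum and by -0.37 to 0.19 with median-of-ratios. Shares of all genes called are given only for the fit as reported and for limma without both low-complexity libraries. For the other settings, and for single libraries left out, a move is not shown to be particular to hox genes. The cause of these moves was not tested.

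Leaving out 1 library gave 0 to 1, 2 to 3, 0 to 0, 4 to 5, 0 to 7, 1 to 2, 0 to 1 and 1 to 9 in the same order. It gave 38 to 47 for EC minus DN and 45 to 47 for HSPC minus DN at 3 dpf, 13 to 23 for EC and 33 to 38 for HSPC 3 dpf minus 36 hpf, 43 to 46 for kidney DN minus DN of 4 dpf and 24 to 30 for the change of HSPC minus DN. Shares of members 9 to 13 by single library ran from 34.5 to 37.2 percent in DN at 36 hpf, 74.7 to 76.2 at 52 hpf, 74.2 to 77.7 at 3 dpf, 75.8 to 76.8 at 4 dpf, 32.5 to 34.3 in EC and 38.3 to 38.4 in HSPC at 36 hpf, and 69.4 to 73.8 in EC at 3 dpf. By recovered reads they were 32.5, 67.7, 66.4, 66.2, 28.5, 34.4 and 63.4 percent.

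With the replicate number as a replicate block the counts were 3, 6, 6, 8, 14, 1, 0 and 10 in the first order. Over 66 pairs of groups the correlation of same-numbered deviations ran from -0.34 to 0.27, with a median of 0.01. Most of these pairs join different stages. Sorts of one stage were not looked at by themselves, so pairing within a stage was not tested. Of 11136 single-member results under the alternatives, 9798 stayed on the same side of the threshold, uncalled members that changed sign included. A further 739 gained and 597 lost the call. The remaining 2 turned and were called by the alternative. hoxc1a in the change of HSPC minus DN, 0.68 as reported and uncalled, was -5.58 by limma-voom with and without the low-complexity libraries. With 2 libraries per group, and 415 to 697 hox reads in HSPC of 3 dpf, changes of low members are beyond this depth.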
